A study of Homo sapiens with 18 samples.

Results

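The 9 genes described here encode the enzymes that turn the linear sterol precursor into the cholesterol skeleton: LSS, CYP51A1, TM7SF2, MSMO1, NSDHL, HSD17B7, EBP, SC5D and DHCR7. They were chosen as the enzymes of these steps, by symbol, and all 9 were found by Ensembl identifier among the 60483 listed genes. The cells were OVCAR5, an established line from a human ovarian cancer, unmodified and labelled as high grade serous adenocarcinoma. The RNA sequencing data comprised 18 samples. They formed 6 conditions of 3 samples each, in which cells received no fatty acid (DMSO or CAY10566), stearate (stearate+DMSO or stearate+CAY10566) or oleate (oleate+DMSO or oleate+CAY10566). Stearate, a saturated fatty acid, and oleate, the monounsaturated fatty acid made from it by the desaturase SCD1, were given at 50 µM. CAY10566, an SCD1 inhibitor, was given at 1 µM, with DMSO as the vehicle. Every condition lasted 24 h, and all media, controls included, contained 5% bovine serum albumin free of fatty acids. The design therefore asks how these enzymes responded to each fatty acid, and whether blocking the conversion of stearate to oleate altered that response. In the main comparisons control, stearate and oleate denote groups of 6 samples, each pooling 3 with DMSO and 3 with CAY10566.

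Cholesterol synthesis runs from acetyl-CoA through mevalonate to squalene epoxide, which LSS folds into lanosterol, the first sterol. The enzymes that follow sit in the membrane of the endoplasmic reticulum. They strip methyl groups from the rings (CYP51A1, MSMO1, NSDHL, HSD17B7) or introduce (SC5D), move (EBP) or reduce (TM7SF2, DHCR7) ring double bonds. Genes of the whole pathway are known targets of the transcription factor SREBP2, which is held in the endoplasmic reticulum by SCAP and INSIG proteins when sterols are abundant, and unsaturated fatty acids are known to restrain the related factor SREBP1.

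Promoter sequence is shown first, as a description, and its relation to expression was not tested. RefSeq promoter windows (GRCh38.p14), which run from 250 bases before to 50 bases after each annotated start, were found for 9 of 9 members and searched on both strands, a member being counted when any of its windows held the motif. The CCAAT box, read as CCAAT or ATTGG, was present for 8 of 9 members, CYP51A1 being the exception, against 34.6% of all 35116 windows. The GC box GGGCGG was also present for 8 of 9, NSDHL being the exception, against 45.0% of windows. The sterol regulatory element core TCACNCCAC was found for 0 of 9 members and in 1.13% of windows. Its variant TCACCCNAC was found for 1 member, HSD17B7, and in 0.937% of windows. The E-box CACGTG was found for LSS and SC5D, 2 of 9, against 7.26% of windows. A match is a description of the letters and not a binding site, and its absence says only that these letters are not in the window. The stretches before the start of 4 members are shown in lower case, 5′ to 3′ on the strand of the gene, ending at the start or at the first annotated exon base of a coding transcript. DHCR7 and SC5D each had 2 windows, of which 1 is shown. The DHCR7 stretch not shown (chr11:71449044-71449293) held no CCAAT box, variant element or E-box. The stretch of DHCR7 lies inside the annotated gene, and that of SC5D runs into it. Capitals mark the CCAAT box, the variant element and the E-box. DHCR7 and MSMO1 are shown as the members that differed most between oleate and control, and SC5D as the member that differed least. HSD17B7 is shown for its variant element.
DHCR7 (chr11:71448436-71448643, minus strand): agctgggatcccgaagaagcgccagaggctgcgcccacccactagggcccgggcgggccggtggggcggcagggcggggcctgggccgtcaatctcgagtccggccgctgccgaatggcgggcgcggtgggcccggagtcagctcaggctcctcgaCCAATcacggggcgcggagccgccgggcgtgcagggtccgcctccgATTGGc
MSMO1 (chr4:165327419-165327666, plus strand): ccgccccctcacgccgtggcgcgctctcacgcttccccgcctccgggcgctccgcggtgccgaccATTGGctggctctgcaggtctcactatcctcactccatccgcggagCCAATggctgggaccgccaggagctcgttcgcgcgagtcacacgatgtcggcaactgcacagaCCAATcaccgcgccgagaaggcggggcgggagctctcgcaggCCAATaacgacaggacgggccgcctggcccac
HSD17B7 (chr1:162790452-162790701, plus strand): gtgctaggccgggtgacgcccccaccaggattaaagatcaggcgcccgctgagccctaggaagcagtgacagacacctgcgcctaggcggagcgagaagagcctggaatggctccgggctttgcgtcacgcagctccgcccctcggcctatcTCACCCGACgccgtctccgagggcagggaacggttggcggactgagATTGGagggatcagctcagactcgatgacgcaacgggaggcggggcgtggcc
SC5D (chr11:121292521-121292770, plus strand): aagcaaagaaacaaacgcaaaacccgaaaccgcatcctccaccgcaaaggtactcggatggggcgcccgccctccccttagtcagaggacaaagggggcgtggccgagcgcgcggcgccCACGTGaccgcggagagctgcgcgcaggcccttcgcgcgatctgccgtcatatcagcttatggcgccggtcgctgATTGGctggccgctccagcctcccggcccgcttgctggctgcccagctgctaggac
MSMO1 carried 4 CCAAT boxes within this stretch and DHCR7 carried 2, while SC5D carried 1. In HSD17B7 the variant element lay at bases -98 to -90, ahead of a CCAAT box at -52 to -48. Members with and without large changes in expression therefore both held CCAAT boxes.

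Expression was given as TPM, a length-corrected share of all transcripts that sums to the same total in every sample and allows levels of different genes to be compared. TPM keeps no record of reads, so depth is unknown and precision rests on the spread between samples. Of the listed genes, 13789 had a mean TPM of at least 1 and were tested, among them 9 of 9 members. Correlations across genes between replicates ranged from 0.982 to 0.987, and no samples held identical values. The epithelial markers EPCAM, KRT8, KRT18, KRT19 and CDH1 were at 37.4 TPM or more in every sample. Of 5 serous ovarian markers, PAX8 (7.64 to 16.9 TPM) and WFDC2 (105 to 164 TPM) were expressed, while WT1, MUC16 and SOX17 stayed at or under 1.04 TPM, so the labelled serous type was met only in part. Of 5 intestinal markers CDX2 was at 2.50 to 5.55 TPM and KRT20 at 1.00 to 2.34 TPM, with VIL1, LGALS4 and CDH17 at or under 0.87 TPM. The leukocyte markers PTPRC and CD3E were at or under 0.13 TPM, with CD68 at 81.9 to 113 TPM, and the fibroblast markers COL1A2 and PDGFRB were at or under 0.97 TPM, with COL1A1 at 3.10 to 7.17 TPM.

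All 9 members were expressed, at percentiles 87.5 to 97.2 of mean TPM over the listed genes. Of these 60483 genes, only 30753 were above 0 in at least 1 sample and 13789 averaged 1 TPM or more. EBP, the isomerase that moves the ring double bond, averaged 83.9 ± 8.48 TPM over the 18 samples (SD), and DHCR7, the reductase of a final step, averaged 80.8 ± 12.4 TPM. CYP51A1, the demethylase acting on lanosterol, averaged 50.3 ± 3.92 TPM, and MSMO1, the oxidase of the ring A methyl groups, averaged 43.4 ± 6.48 TPM. TM7SF2, a reductase of the double bond that the CYP51A1 step leaves, averaged 40.8 ± 6.64 TPM, and LSS averaged 30.5 ± 4.48 TPM. The lower part of the order held SC5D, the desaturase that precedes DHCR7, at 24.7 ± 1.72 TPM, NSDHL, the dehydrogenase of the ring A demethylation, at 21.8 ± 1.47 TPM, and HSD17B7, the reductase that completes it, at 11.6 ± 1.67 TPM. Neighbours in this order were mostly separated within samples. DHCR7 exceeded CYP51A1 and NSDHL exceeded HSD17B7 in 18 of 18 samples, and LSS exceeded SC5D, and SC5D exceeded NSDHL, in 17. CYP51A1 exceeded MSMO1, and TM7SF2 exceeded LSS, in 16 samples. MSMO1 and TM7SF2 changed places with the fatty acid, TM7SF2 being the higher in 0 of 6 control, 4 of 6 stearate and 2 of 6 oleate samples. EBP exceeded DHCR7 in only 11 of 18 samples: 5 of 6 controls, 0 of 6 with stearate and 6 of 6 with oleate. The ratio of DHCR7 to EBP ran from 0.869 to 1.07 in controls, from 1.02 to 1.13 with stearate and from 0.742 to 0.917 with oleate, so the stearate and oleate samples did not overlap.

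**Figure D1:**
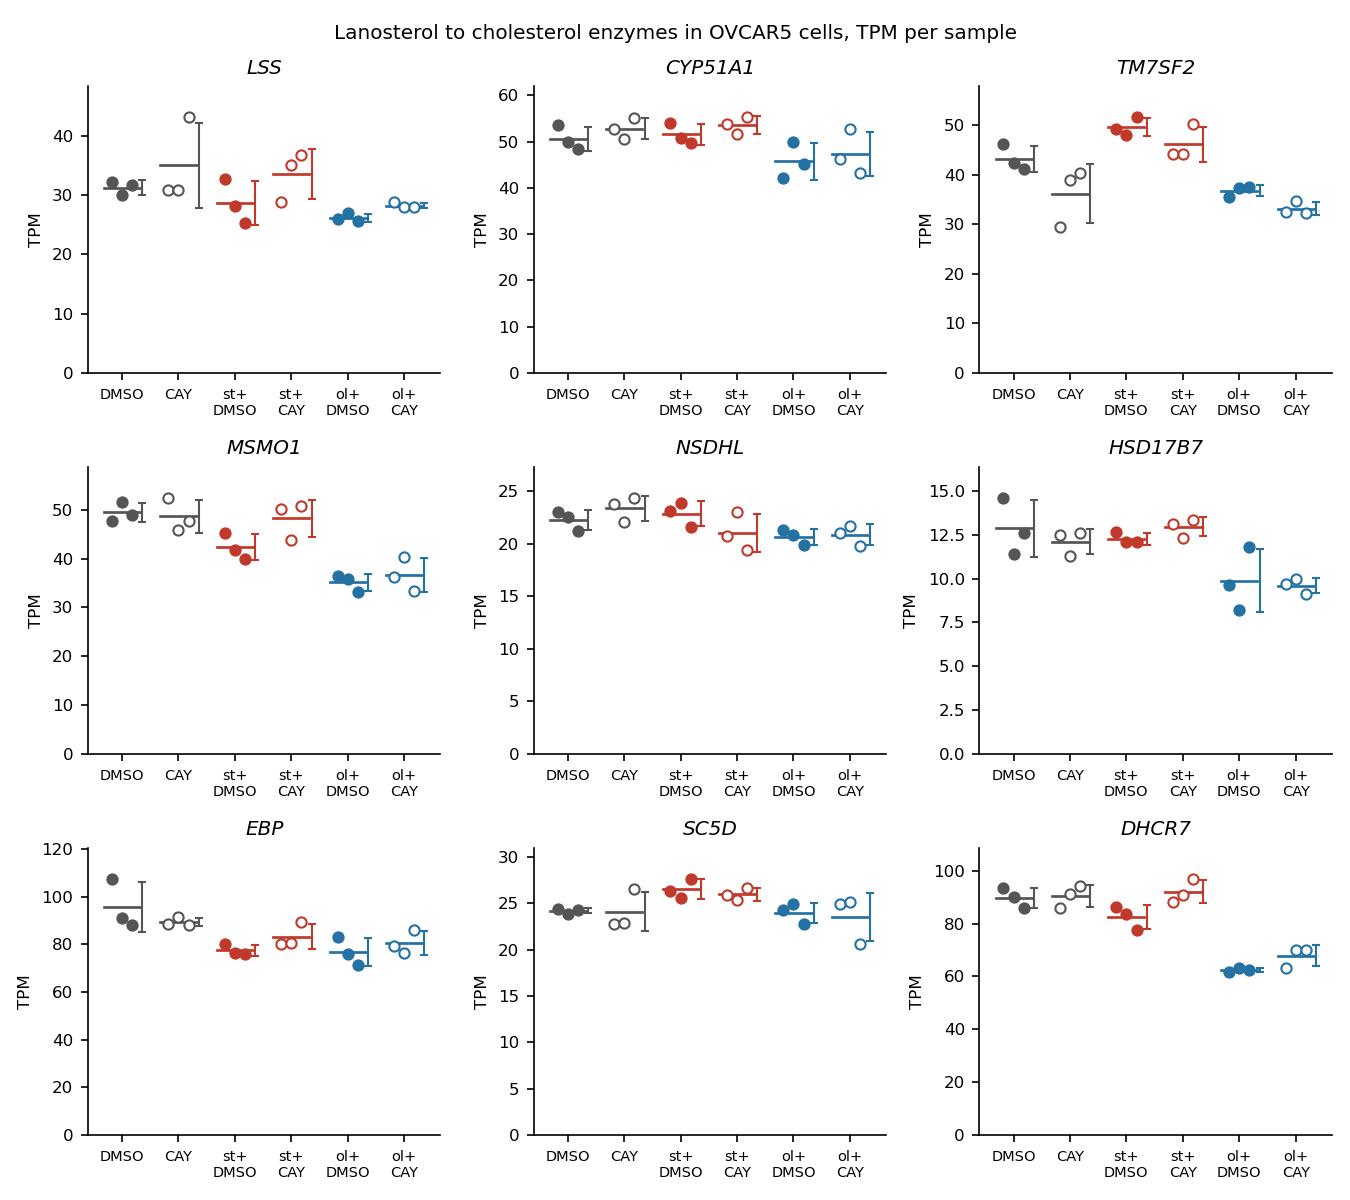
TPM of each member in each of the 18 samples, by condition (st, stearate; ol, oleate; CAY, CAY10566), on linear axes from 0; points are samples, filled with DMSO and open with CAY10566, long lines are means and whiskers are SD (n = 3). DHCR7 sat between 61.6 and 70.2 TPM in the 6 oleate samples and at 77.6 TPM or above in the other 12.

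Transcripts of most members were lower with oleate. Mean TPM of DHCR7 fell by 27.7% and that of MSMO1 fell by 26.9%. HSD17B7 fell by 22%, and LSS, EBP and CYP51A1 by less, while TM7SF2, NSDHL and SC5D did not pass the test. Genes were called with limma on log2(TPM + 1) at a false discovery rate (FDR, Benjamini-Hochberg over all genes tested) under 0.05, and fold changes are on that scale, on which changes of low genes are understated. Of 9 members, 6 were lower and 0 higher with oleate than in control, against a background of 2.7% of all tested genes called lower and 23% called higher (25.7% in all). The median log2 fold change of the members was -0.23, beside 0.09 for all tested genes, and 9 of 9 members lay below 0, as they did when TPM was rescaled by median-of-ratios size factors. A fold change over 1.25 as well was met by 3 members, DHCR7, MSMO1 and HSD17B7, where 0.435% of tested genes were called lower in that way. The 6 oleate values lay below all 6 control values for 4 members, DHCR7, MSMO1, LSS and EBP, and in 0.573% of tested genes.

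The reductase DHCR7 (chr11:71428193-71452868) showed the clearest change. Its level in control samples was 85.8 TPM at the lowest, 90.7 at the median and 94.2 at the highest, and with oleate it was 61.6, 63.2 and 70.2 TPM. The highest oleate sample thus lay well under the lowest control. Its log2 fold change was -0.46 (SE 0.05, adjusted p = 2.23e-05), and it ranked 6 of 13789 genes by p. MSMO1 (chr4:165327667-165343164) ranked 15. It had a lowest, median and highest level of 45.8, 48.35 and 52.5 TPM in control and of 33.1, 36.04 and 40.25 TPM with oleate, again without overlap, and its log2 fold change was -0.44 (SE 0.06, adjusted p = 0.000361).

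HSD17B7 (chr1:162790702-162812823), which acts after MSMO1 and NSDHL in the same demethylation, ran from 11.3 through a median of 12.5 to 14.6 TPM in control and from 8.20 through 9.68 to 11.8 TPM with oleate. Of the oleate samples 5 of 6 lay below every control, the exception being oleate+DMSO replicate 3, and the log2 fold change was -0.33 (SE 0.07, adjusted p = 0.00366). EBP (chrX:48521799-48528716) ran from 88.1 through 89.95 to 108 TPM in control and from 71.3 through 77.9 to 86.1 TPM with oleate, with no overlap and a log2 fold change of -0.23 (SE 0.05, adjusted p = 0.00577). The 108 TPM came from DMSO replicate 1, which stood apart from the other 5 controls, at 88.1 to 91.5 TPM. EBP still passed without it (log2 fold change -0.19, adjusted p = 0.0129).

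LSS and CYP51A1, the first enzymes of the group, changed less and lay near the threshold. LSS (chr21:46188141-46228824) ran from 30.0 through 31.3 to 43.2 TPM in control and from 25.6 through 27.5 to 28.8 TPM with oleate, without overlap, and its log2 fold change was -0.27 (SE 0.09, adjusted p = 0.0334). The 43.2 TPM belonged to CAY10566 replicate 3, and without that sample the log2 fold change was -0.19 (adjusted p = 0.0537). CYP51A1 (chr7:92084987-92134803) ran from 48.4 through 51.7 to 55.0 TPM in control and from 42.0 through 45.7 to 52.6 TPM with oleate, where 4 of 6 samples lay below every control, and its log2 fold change was -0.15 (SE 0.05, adjusted p = 0.0304). The LSS call was also lost without DMSO replicate 1 or any of the 3 oleate+DMSO samples. The CYP51A1 call was lost without DMSO replicate 1, CAY10566 replicate 1, or replicate 1 or 3 of oleate+DMSO or oleate+CAY10566, adjusted p reaching 0.0722. With no filter on TPM both calls were lost (adjusted p = 0.0854 for LSS and 0.0648 for CYP51A1), as they were in a fit of the DMSO samples alone (0.0564 and 0.143), where HSD17B7 was lost too (0.0674) and TM7SF2 passed (-0.23, adjusted p = 0.0158).

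The remaining 3 members did not pass. TM7SF2 (chr11:65111845-65116384) had a log2 fold change of -0.17 (95% interval -0.33 to -0.0045, adjusted p = 0.122) and passed at -0.25 (adjusted p = 0.00725) when CAY10566 replicate 1, its lowest control at 29.4 TPM, was left out. NSDHL (chrX:152830967-152869729) had -0.13 (SE 0.05, adjusted p = 0.0548), with 4 of 6 oleate samples below every control. SC5D (chr11:121292681-121313410) had -0.02 (95% interval -0.13 to 0.08, adjusted p = 0.769). With median-of-ratios scaling TM7SF2 and NSDHL passed as well and SC5D did not, giving 8 of 9 members lower. That scaling moved the median of all genes from 0.09 to -0.0036 and the background with it, to 9.42% of tested genes called lower and 8.89% called higher.

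**Figure D2:**
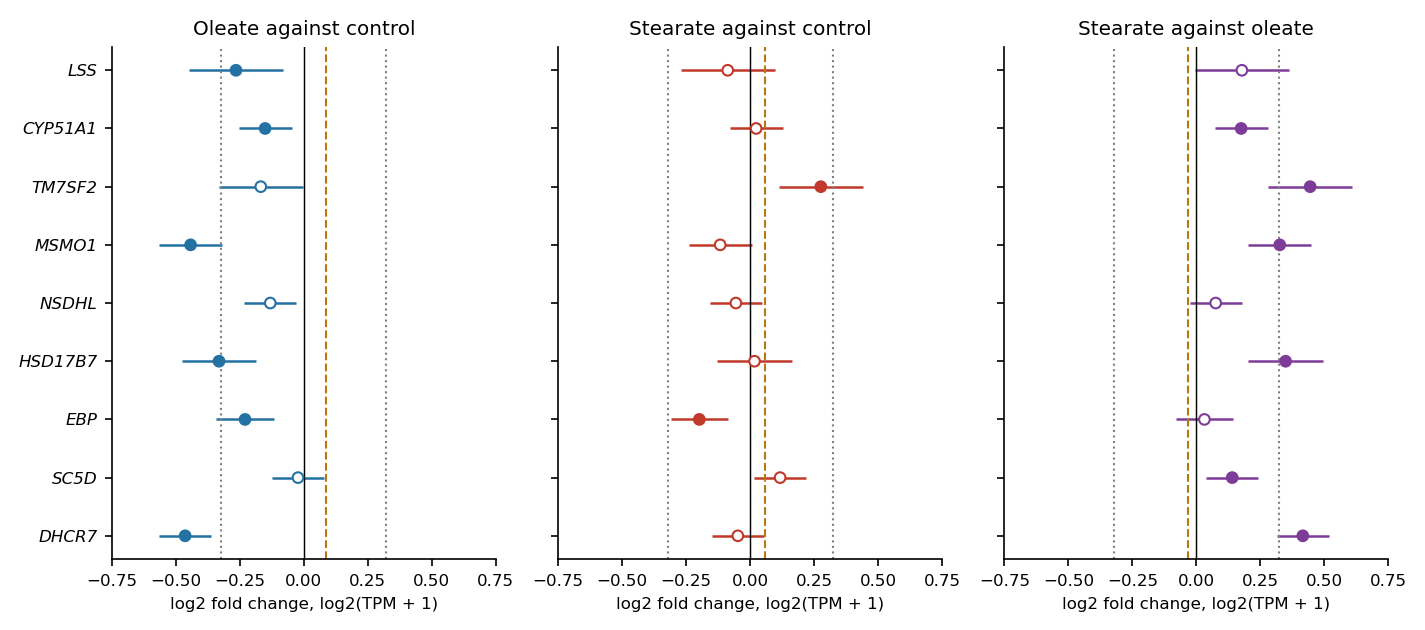
Log2 fold change of each member on the log2(TPM + 1) scale for oleate against control, stearate against control and stearate against oleate, 6 against 6 samples; bars are 95% intervals, filled points passed FDR, dotted lines mark a fold change of 1.25 and the dashed line is the median of all tested genes. With oleate 6 members lay to the left and passed, with stearate only TM7SF2 (0.28) and EBP (-0.20) passed, in opposite directions.

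The stearate comparison shares its control samples with the oleate comparison, and 2 members passed, in opposite directions. TM7SF2 was higher with stearate and EBP was lower; the other 7 members did not pass. This stands beside 19.4% of tested genes called in either direction, 13.5% higher and 5.97% lower, and 0 members passed the fold limit as well, where 5.35% of genes did. The median log2 fold change of the members was -0.05, beside 0.06 for all genes.

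TM7SF2 ran from 29.4 through a median of 40.7 to 46.1 TPM in control and from 44.05 through 48.7 to 51.65 TPM with stearate. The groups overlapped, with 4 of 6 stearate samples above every control, and the log2 fold change was 0.28 (SE 0.08, adjusted p = 0.0188). After median-of-ratios scaling it was 0.22 (adjusted p = 0.0506), EBP alone of the members passed, and 7.75% of tested genes were called higher and 10.3% lower. The gene overlaps VPS51 on the same strand (mean 66.9 TPM), whose own log2 fold change was -0.11 (adjusted p = 0.385); how reads were divided where the genes overlap is not given in the sources used here. EBP ran from 75.9 through 80.2 to 89.4 TPM with stearate, and 5 of 6 samples lay below every control. Its log2 fold change was -0.20 (SE 0.05, adjusted p = 0.0140). The exception was stearate+CAY10566 replicate 3, at 89.4 TPM, which stood apart from the other 5 stearate samples, at 75.9 to 80.6 TPM.

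DHCR7, MSMO1 and HSD17B7, which fell most with oleate, did not pass with stearate in the fit over all samples. DHCR7 ran from 77.6 through 87.3 to 97.0 TPM with stearate, spanning the control range, with a log2 fold change of -0.05 (95% interval -0.15 to 0.05, adjusted p = 0.511). HSD17B7 ran from 12.1 through 12.5 to 13.4 TPM, inside the control range, with 0.02 (95% interval -0.13 to 0.16, adjusted p = 0.891). MSMO1 had -0.12 (95% interval -0.24 to 0.0060, adjusted p = 0.169), with 4 of 6 stearate samples below every control, and it passed when the DMSO samples were fitted alone (-0.22, adjusted p = 0.0379). Of the others, SC5D had 0.12 (adjusted p = 0.0972), LSS -0.09 (0.514), NSDHL -0.06 (0.447) and CYP51A1 0.02 (0.773), the values in brackets being adjusted p. With scaling, the values for CYP51A1 and HSD17B7 turned to -0.04 each, neither passing.

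The direct comparison of the fatty acids separated most members. Stearate samples were higher than oleate samples for 6 of 9 members and lower for 0, against 6.85% of tested genes called higher and 14.3% called lower. The fold limit was also met by 4 members, where 1.6% of genes were called higher in that way. The members' median log2 fold change was 0.18, beside -0.03 for all genes. With median-of-ratios scaling 6 members again passed, all higher, where 10.5% of genes were called higher and 11.4% lower. For TM7SF2, HSD17B7, SC5D and DHCR7, 4 of 9 members, every stearate value lay above every oleate value, as in 2.94% of tested genes.

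TM7SF2 differed most, at 0.44 on the log2 scale (SE 0.08, adjusted p = 0.00047), its oleate samples running from 32.2 through 35.1 to 37.5 TPM and the lowest stearate sample standing at 44.05 TPM. DHCR7 differed by 0.42 (SE 0.05, adjusted p = 4.63e-06) and HSD17B7 by 0.35 (SE 0.07, adjusted p = 0.00145). MSMO1 was 0.33 higher (SE 0.06, adjusted p = 0.000581), with 5 of 6 stearate samples above every oleate sample, and CYP51A1 was 0.17 higher (SE 0.05, adjusted p = 0.0164), with 3 of 6. When the DMSO samples were fitted alone, the calls of HSD17B7 (adjusted p = 0.166) and CYP51A1 (0.140) were lost. When the CAY10566 samples were fitted alone, those of TM7SF2 (0.0593) and CYP51A1 (0.223) were lost.

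SC5D, the last desaturase, passed narrowly. It ran from 25.3 through 26.2 to 27.7 TPM with stearate and from 20.6 through 24.6 to 25.2 TPM with oleate, and differed by 0.14 (SE 0.05, adjusted p = 0.0473). That call was lost when any of 12 samples was left out (any but the 3 CAY10566 samples, oleate+DMSO replicate 2 and oleate+CAY10566 replicates 1 and 2), adjusted p reaching 0.102. It was also lost with CAY10566 as a covariate (adjusted p = 0.0526), with no filter on TPM (0.0806), without a trend (0.0506) and with the replicate number as a block (0.0653). In the DMSO samples alone its adjusted p was 0.117, and in the CAY10566 samples alone 0.443. EBP, lower with both fatty acids than in control, differed between them by 0.03 (95% interval -0.08 to 0.14, adjusted p = 0.724). LSS differed by 0.18 (95% interval -0.0065 to 0.36, adjusted p = 0.163) and NSDHL by 0.08 (95% interval -0.03 to 0.18, adjusted p = 0.295).

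Taken as a sum over the 9 members, TPM was 416 ± 17.8 in control (SD, n = 6), 405 ± 19.6 with stearate and 343 ± 9.36 with oleate. The highest oleate sum, 359 TPM, lay under the lowest stearate sum, 382 TPM, and the lowest control sum, 399 TPM. EBP and DHCR7 together made up 21.6% and 20.8% of this sum, so it follows them more than the low members.

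The response to oleate was then read with and without the SCD1 inhibitor, in a model of 6 conditions with 3 samples each. With DMSO, DHCR7 was at 93.5, 90.1 and 85.8 TPM in control and at 61.6, 63.2 and 62.4 TPM with oleate. With CAY10566 it was at 85.85, 91.3 and 94.2 TPM without fatty acid and at 63.2, 70.1 and 70.2 TPM with oleate. In both arms all 3 oleate samples lay below all 3 controls, with log2 fold changes of -0.52 (SE 0.06, adjusted p = 0.000195) and -0.41 (SE 0.06, adjusted p = 0.00328). The second call was lost when the 9 CAY10566 samples were fitted alone (-0.41, adjusted p = 0.120). MSMO1 was at 47.8, 51.6 and 48.9 TPM in DMSO control and at 36.4, 35.9 and 33.1 TPM in oleate+DMSO. With CAY10566 it was at 52.5, 45.8 and 47.8 TPM without fatty acid and at 36.2, 40.25 and 33.4 TPM with oleate. The groups did not overlap in either arm, and the log2 fold changes were -0.48 (SE 0.08, adjusted p = 0.00218) and -0.40 (SE 0.08, adjusted p = 0.0512).

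With DMSO 4 of 9 members were called lower with oleate, DHCR7, MSMO1, HSD17B7 (-0.36, adjusted p = 0.0210) and EBP (-0.31, adjusted p = 0.00756), against 3.1% of tested genes. With 1 sample left out 3 to 5 members passed, HSD17B7 being lost without DMSO replicate 1 (adjusted p = 0.0956) or oleate+DMSO replicate 2 (-0.24, adjusted p = 0.111). With CAY10566 only DHCR7 was called, 1 of 9, against 0.0508% of tested genes, so that arm called few genes of any kind. The members' fold changes were nevertheless all below 0 in both arms, with medians of -0.25 and -0.16. The difference between the arms, tested as an interaction, passed for 0 of 9 members, with values from -0.06 to 0.16 and 0 at an unadjusted p under 0.05, and for 0% of tested genes (10.3% at an unadjusted p under 0.05). In the DMSO arm the median of all genes was 0.11 above control and moved to -0.01 with median-of-ratios scaling. With that scaling DHCR7 stood at -0.65 and MSMO1 at -0.61, and 8 of 9 members passed, against 9.89% of tested genes called lower.

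For stearate, EBP was called in the DMSO arm (-0.30, adjusted p = 0.0161) and TM7SF2 in the CAY10566 arm (0.35, adjusted p = 0.0350), 1 of 9 members each, where 14% and 4.75% of tested genes were called. Neither passed in the other arm, EBP being at -0.10 with CAY10566 (adjusted p = 0.491) and TM7SF2 at 0.20 with DMSO (adjusted p = 0.148). With the CAY10566 samples fitted alone EBP did not pass either (-0.10, adjusted p = 0.456). In the DMSO arm EBP was at 108, 91.3 and 88.3 TPM in control and at 80.3, 76.5 and 75.9 TPM with stearate. In the CAY10566 arm TM7SF2 was at 29.4, 38.9 and 40.25 TPM without fatty acid and at 44.05, 44.1 and 50.2 TPM with stearate. Neither pair of groups overlapped, yet the EBP call was lost without DMSO replicate 1 or stearate+DMSO replicate 2, and the TM7SF2 call without CAY10566 replicate 1 (0.21, adjusted p = 0.0963) or any of the 3 stearate+CAY10566 samples. The TM7SF2 call was also lost with no filter on TPM (adjusted p = 0.0848), without a trend (0.0515) and when the CAY10566 samples were fitted alone (0.168). The interaction of stearate with CAY10566 passed for 0 of 9 members, against 0.00725% of tested genes, with values from -0.18 to 0.21 and 0 at an unadjusted p under 0.05 (9.36% of tested genes). MSMO1, for example, had -0.22 with DMSO (adjusted p = 0.0640) and -0.01 with CAY10566 (adjusted p = 0.949), a difference of 0.21 (95% interval -0.02 to 0.43, adjusted p = 0.541).

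Stearate against oleate gave 3 of 9 members higher with DMSO, TM7SF2 (0.43), MSMO1 (0.26) and DHCR7 (0.40), against 3.05% of tested genes. The MSMO1 call (adjusted p = 0.0424) was lost without any of the DMSO, stearate+DMSO or oleate+DMSO samples or oleate+CAY10566 replicate 1, 10 samples in all, with adjusted p up to 0.163, and also with no filter on TPM (0.0914) or no trend (0.0605). With CAY10566 it gave 4 of 9, TM7SF2 (0.46), MSMO1 (0.39), HSD17B7 (0.40) and DHCR7 (0.44), against 1.9% of tested genes. The HSD17B7 call (adjusted p = 0.0264) was lost without stearate+CAY10566 replicate 1 or 3 or any of the 3 oleate+CAY10566 samples, with adjusted p up to 0.0877, and with no filter on TPM (0.0608). DHCR7 had the smallest adjusted p of the members in both arms, 0.000228 and 9.4e-05.

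**Figure D3:**
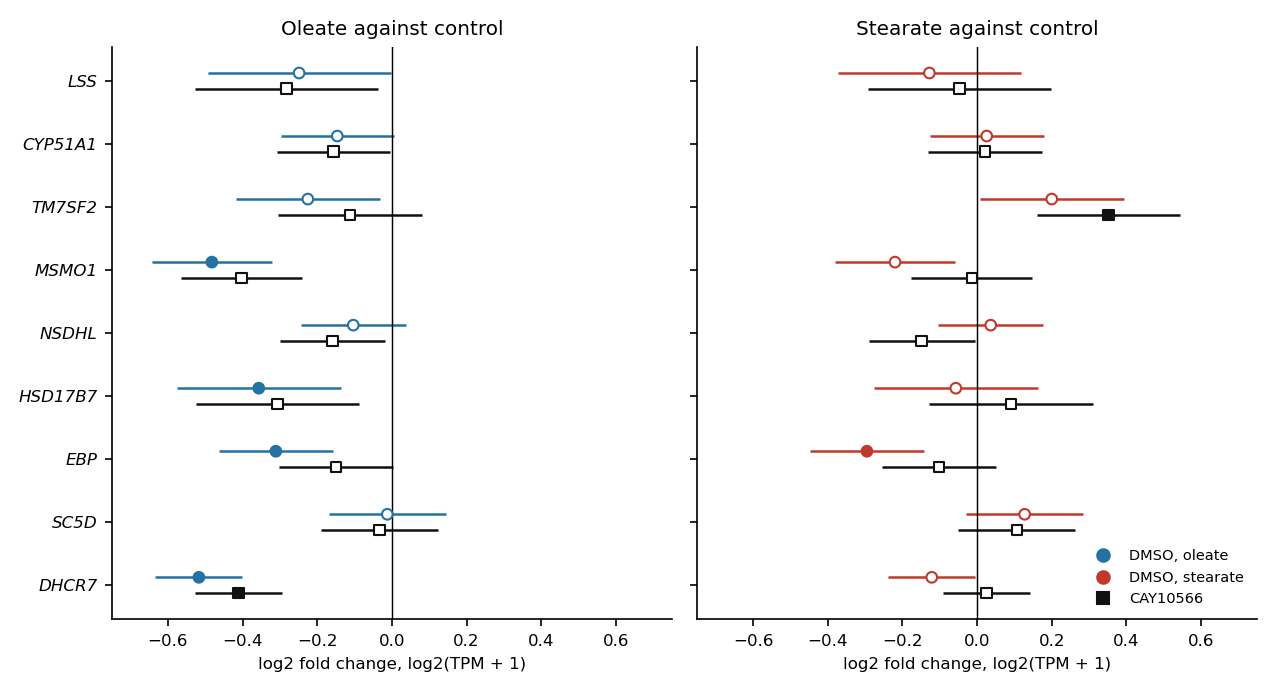
Log2 fold change of each member on the log2(TPM + 1) scale for oleate and stearate against control, in DMSO samples (circles) and in CAY10566 samples (squares), 3 against 3 samples in a model of 6 conditions; bars are 95% intervals and filled symbols passed FDR. For oleate all 18 values lay below 0, from -0.52 to -0.01; for stearate they lay on both sides of 0.

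For CAY10566 against DMSO no member passed. In a comparison of 9 with 9 samples that took the fatty acid into account, 0 of 9 members passed FDR by limma, as did 0% of tested genes. At an unadjusted p under 0.05 there were 3 of 9 members and 5.42% of tested genes. TM7SF2 had a log2 fold change of -0.17 (95% interval -0.28 to -0.06, unadjusted p = 0.00412, adjusted p = 0.799). DHCR7 had 0.09 (95% interval 0.02 to 0.16, adjusted p = 0.850) and LSS had 0.16 (95% interval 0.02 to 0.29, adjusted p = 0.894). The other 6 members lay between -0.02 and 0.07, adjusted p being 0.970 or more.

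Within the fatty acid groups 0 of 9 members passed as well, where 0%, 0.0145% and 0% of tested genes did without fatty acid, with stearate and with oleate. Unadjusted p was under 0.05 for 1, 2 and 0 of 9 members, against 10.1%, 5.52% and 4.72% of tested genes. TM7SF2 lay below 0 in all 3 groups, at -0.26 without fatty acid, -0.11 with stearate and -0.15 with oleate. Without CAY10566 replicate 1 the first of these was -0.12. With oleate its 3 inhibitor samples, at 32.4, 34.65 and 32.2 TPM, all lay under the 3 DMSO samples, at 35.5, 37.2 and 37.5 TPM. In the same comparison 1 other member separated in the opposite direction. The share of all tested genes without overlap at 3 against 3 samples is not given, here or for the other such comparisons. DHCR7 was at 86.2, 83.7 and 77.6 TPM in stearate+DMSO and at 88.3, 90.9 and 97.0 TPM in stearate+CAY10566, without overlap, a log2 fold change of 0.16 (95% interval 0.04 to 0.27, adjusted p = 0.758). 

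**Figure D4:**
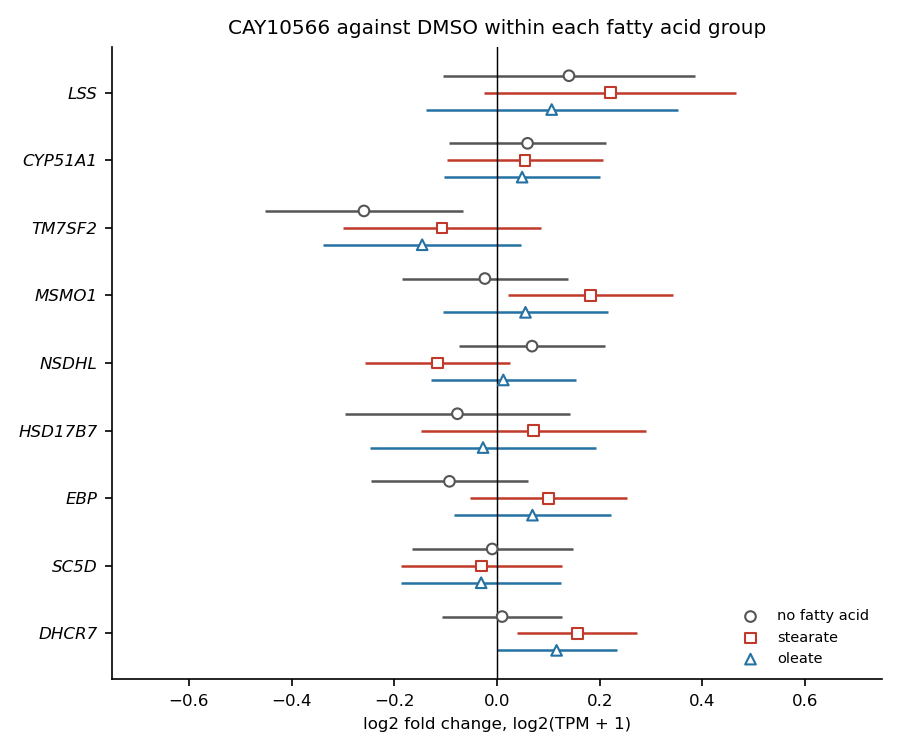
Log2 fold change of each member on the log2(TPM + 1) scale for CAY10566 against DMSO without fatty acid (circles), with stearate (squares) and with oleate (triangles), 3 against 3 samples in a model of 6 conditions; bars are 95% intervals, and open symbols did not pass FDR. All 27 values lay between -0.26 and 0.22 and none passed.

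Most genes of the earlier steps were lower with oleate too. Of 10 genes from mevalonate synthesis to squalene epoxide, 7 were lower with oleate than in control and 0 higher, against the same background of 2.7% called lower. They included MVK, the mevalonate kinase, at -0.41 (SE 0.05, adjusted p = 0.00021), FDPS, the farnesyl diphosphate synthase, at -0.39, MVD, the mevalonate diphosphate decarboxylase, at -0.38, and IDI1, the isopentenyl diphosphate isomerase, at -0.35. With stearate against control 0 of these 10 passed, where 19.4% of tested genes did, and stearate was higher than oleate for 6 of 10, where 6.85% of tested genes were called higher. With median-of-ratios scaling 8 were lower with oleate, beside 9.42% of genes, and 8 were higher with stearate than with oleate, beside 10.5%. With that scaling 2 of 10 were lower with stearate than in control, beside 10.3% of genes. For CAY10566 against DMSO 0 of 10 passed over all samples, but FDPS was higher with the inhibitor among stearate samples (0.24, adjusted p = 0.0171). Against control, FDPS with stearate was lower in the DMSO arm (-0.22, adjusted p = 0.000857) and at 0.12 in the CAY10566 arm (adjusted p = 0.0542). Its interaction of stearate with CAY10566 was 0.34 (SE 0.05, adjusted p = 0.0340), the 1 call among 13789 genes in the fit as deposited. That call was lost with median-of-ratios scaling (0.40, adjusted p = 0.0982), without a trend (adjusted p = 0.195) and in 14 of 18 fits that left out 1 sample (0.32 to 0.36). Its call for CAY10566 among stearate samples was also lost with scaling (0.27, adjusted p = 0.0512), without a trend (adjusted p = 0.317) and in 5 of 18 such fits, while its stearate call in the DMSO arm passed in all 18 and with scaling.

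Of 8 genes of the remaining sterol steps and their electron donors, 2 were lower and 1 higher with oleate, beside 2.7% and 23% of tested genes. With median-of-ratios scaling 4 were lower and 0 higher, beside 9.42% and 8.89% of genes, the added ones being CYB5R3 (-0.13, adjusted p = 0.0114), which reduces cytochrome b5, and PGRMC1 (-0.15, adjusted p = 0.00287), a heme-binding partner of CYP51A1. As deposited, POR, which passes electrons to CYP51A1, fell by 0.24 on the log2 scale (adjusted p = 0.00469) and ERG28, a scaffold of the ring A demethylation enzymes, fell by 0.16 (adjusted p = 0.00938). FAXDC2, a hydroxylase related to MSMO1 and expressed at 1.85 TPM in control, was higher by 0.29 (adjusted p = 0.0464), a call lost with scaling (0.21, adjusted p = 0.152). LBR, which shares the reductase activity of TM7SF2, did not pass for either fatty acid. With stearate 1 of 8 passed, the cytochrome CYB5B, higher by 0.08 (adjusted p = 0.0423) where 13.5% of tested genes were called higher, and at 0.02 with scaling (adjusted p = 0.583). POR and ERG28 were higher with stearate than with oleate, by 0.30 and 0.26, the 2 of 8 that passed, beside 6.85% of tested genes called higher. With scaling 4 of 8 were higher, beside 10.5% of genes.

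Among 12 genes of sterol sensing and uptake 11 were tested. With oleate 3 were lower and 2 higher, beside 2.7% of tested genes called lower and 23% called higher. With median-of-ratios scaling 6 were lower and 1 higher, beside 9.42% and 8.89% of genes. INSIG1, which retains SREBP proteins in the endoplasmic reticulum, was the most changed at -0.59 (SE 0.06, adjusted p = 1.62e-05), a larger change than in any member. SREBF1, which encodes SREBP1, was lower by 0.35 and NPC1, an exporter of lysosomal cholesterol, by 0.22 on the log2 scale, while MBTPS2, a protease that releases SREBP, was higher by 0.26. With stearate 0 were higher and 2 lower, SREBF1 (-0.22, adjusted p = 0.0208) and INSIG2 (-0.20, adjusted p = 0.00454), beside 13.5% of tested genes called higher and 5.97% called lower. With median-of-ratios scaling 3 were lower, INSIG1 passing too (-0.19, adjusted p = 0.0272), beside 10.3% of genes. Of 6 efflux and esterification genes 5 were tested. With oleate 1 was lower and 1 higher, beside 2.7% and 23% of tested genes, and with stearate 1 was higher, beside 13.5%. The exporter ABCG1 fell by 0.35 with oleate (adjusted p = 0.00392). SOAT1, which esterifies cholesterol, rose by 0.22 with oleate (adjusted p = 0.0457) and by 0.25 with stearate (adjusted p = 0.0283). With scaling its values were 0.12 (adjusted p = 0.212) and 0.19 (adjusted p = 0.0452).

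**Figure D5:**
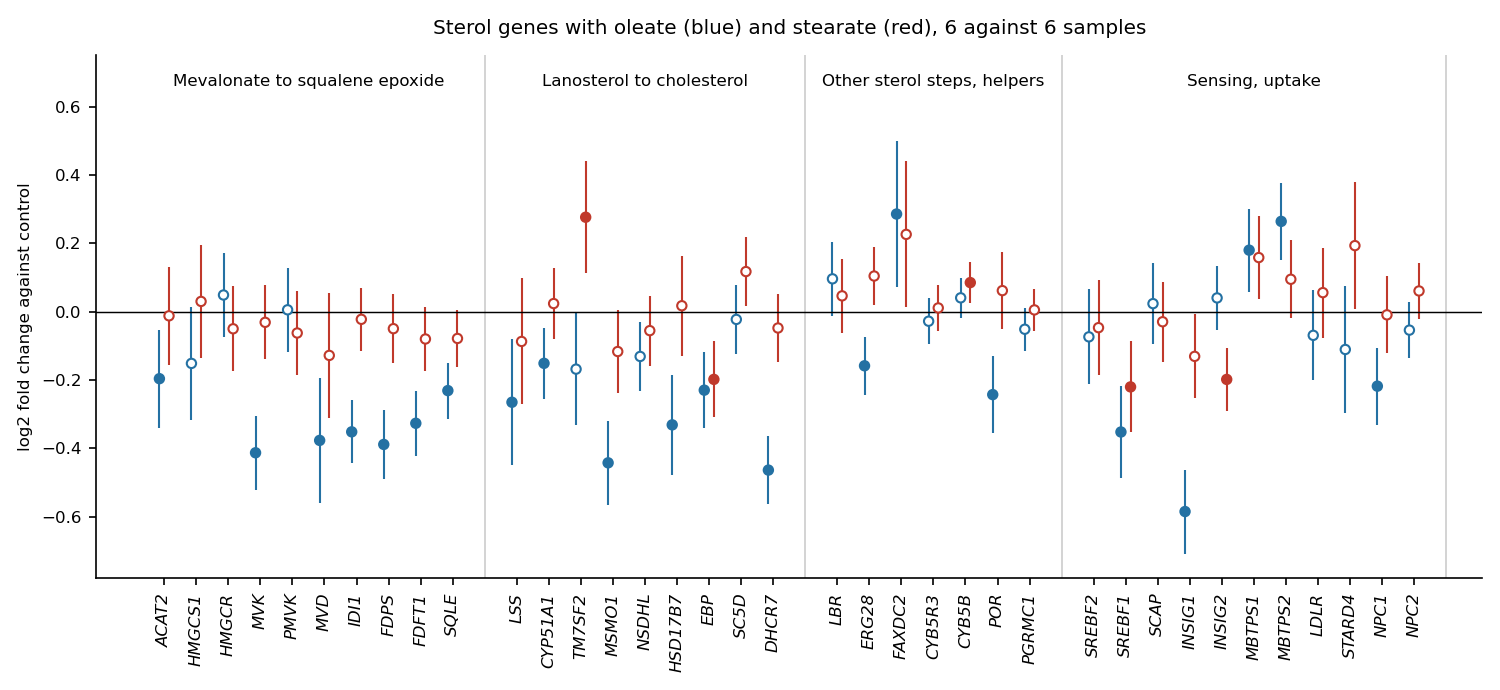
Log2 fold change against control on the log2(TPM + 1) scale with oleate (blue) and stearate (red) for the members and for genes of 3 lists of other sterol genes, 6 against 6 samples; bars are 95% intervals and filled points passed FDR. INSIG1 lay lowest with oleate, at -0.59, and TM7SF2 was highest with stearate among the members, at 0.28.

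Over the 18 samples the members did not follow each other equally. DHCR7 had the highest correlation with the mean of the other members (r = 0.91), ahead of MSMO1 (0.83), CYP51A1 (0.80) and HSD17B7 (0.77). EBP (0.41), SC5D (0.42), NSDHL (0.46) and TM7SF2 (0.52) had the lowest. These values rest on 18 samples in 3 fatty acid groups, and all genes share the same libraries, so they are a description only. The gene most like the members' mean pattern was IDI1 (r = 0.96), followed by SCD (0.94), the desaturase that CAY10566 inhibits, the lipase LIPG (0.93), INSIG1 (0.93), FDFT1 (0.92), MVK (0.92), the retinol dehydrogenase RDH11 (0.91), the aldolase ALDOC (0.88), FDPS (0.88) and SQLE (0.86). SCD averaged 184 ± 13.6 TPM in control, 173 ± 27.6 with stearate and 111 ± 10.3 with oleate (SD, n = 6).

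DHCR7 is overlapped on the opposite strand by the gene ENSG00000254682, at a mean of 15.6 TPM, which was also lower with oleate (-0.28, adjusted p = 0.00858). The library kit kept strand, but the strand setting of the quantification is not given in the sources used here, so reads of this pair may not be fully separated. CYP51A1 is likewise overlapped by AKAP9 on the opposite strand (mean 8.105 TPM, 0.16 with oleate, adjusted p = 0.140), a difference of the other sign. HSD17B7 has near-identical pseudogene copies, and how reads common to them were divided is uncertain. In bulk samples less RNA per cell and fewer expressing cells cannot be told apart. Nothing in the labels says that the 3 samples of a condition came from separate cultures, so the p-values measure the spread between these samples only.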

How the data were processed

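RNA of OVCAR5 cells was sequenced in 18 samples (TruSeq stranded mRNA libraries, 100 bp paired reads). According to the methods and notes of the authors, reads were trimmed with Trim Galore, aligned to GRCh38 (Ensembl 99) with STAR 2.7.1a and quantified with RSEM, and the deposited values are TPM per gene. Read counts and the strand setting of the quantification are not given in the sources used here, so depth is unknown. The table held 60483 genes, of which 56321 (93.1%) had a symbol, after 1 line naming no gene was dropped. It held 0 columns of other samples.

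The 13789 genes averaging 1 TPM or more were tested on log2(TPM + 1) with limma 3.58.1 in R 4.3.3 (lmFit, eBayes with a trend), and p-values were adjusted by Benjamini-Hochberg over all of them. The pooled comparisons used 6 samples per fatty acid group. CAY10566 was tested with the fatty acid as covariate, and single arms and interactions in a model of 6 conditions. The limit of fold change was 1.25. The scripts were tested on simulated data. Alternatives covered the pseudocount (0.1), the filter (none or a mean TPM of at least 5), the trend, median-of-ratios scaling, CAY10566 as covariate, each inhibitor arm alone, the replicate number as a block, and each sample left out. All members were named, and of each other list at most the 4 genes with the largest change among those passing. Some genes of these lists are counted but not reported here by name. The members and lists were chosen with earlier results of these data known. Promoter windows came from RefSeq (GRCh38.p14) and gene positions from GENCODE 44 (GRCh38).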

Additional observations from a re-analysis of the deposited data

Results flagged for a closer look

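In 27 groups of 6 samples, 1 per member and fatty acid, 3 held a sample far from the others by Dixon's test at the 95% level, which chance alone gives in about 1 of 20 groups. LSS was at 43.24 TPM in CAY10566 replicate 3, where the other 5 control samples lay between 29.96 and 32.29 TPM. The same sample was the highest of the 6 controls for 5 of 9 members and for 7 of 10 genes of the mevalonate steps. It was so for 9 of 12 genes of sterol sensing and uptake, 3 of 6 of efflux and esterification and 1 of 8 of the remaining sterol steps. Its median-of-ratios size factor was 1.02, against 0.942 to 0.969 in the other 5 controls, so typical genes were also higher in it. The share of all tested genes that were highest in this sample is not given here. EBP was at 107.6 TPM in DMSO replicate 1, where the other 5 controls lay between 88.09 and 91.5 TPM. EBP was also at 89.39 TPM in stearate+CAY10566 replicate 3, where the other 5 stearate samples lay between 75.93 and 80.61 TPM. FDPS, of the mevalonate steps, differed between the inhibitor arms in its stearate effect by 0.34 on the log2 scale (adjusted p = 0.0340 by limma for the interaction), being lower with stearate than in control with DMSO (-0.22) and at 0.12 with CAY10566. The interaction was not past the threshold with median-of-ratios scaling (0.40, adjusted p = 0.0982) or in 14 of 18 fits that left out 1 sample. The causes were not tested.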

How the results depend on the processing

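Of 2499 values computed under an alternative, 2342 kept their direction and side of the threshold, 90 lost a call, 36 gained one and 31 changed sign. The sign changes touched 13 results whose adjusted p was 0.447 or more as reported and 0.605 or more under the alternative. Depth is unknown, and no limit set by it can be given. DHCR7 and MSMO1 kept their oleate calls whichever sample was left out, at -0.49 to -0.45 and -0.48 to -0.42.

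Median-of-ratios scaling gave 1 member passing for stearate against control in place of 2, and 5 past the fold limit for oleate against control in place of 3. With DMSO it gave 3 in place of 1 for stearate against control and 8 in place of 4 for oleate against control. It gave 5 in place of 3 for stearate against oleate with DMSO, and 2 in place of 1 for oleate against control with CAY10566. Of all tested genes the scaled fits called 7.75% higher and 10.3% lower for stearate against control, and 5.17% and 6.9% with DMSO. For oleate against control they called 10.1% and 9.89% with DMSO, and 0.0653% and 0.232% with CAY10566. For stearate against oleate with DMSO they called 4.14% and 5.42%. Shares past the fold limit with scaling, and for the fits that follow, are not given here. The CAY10566 samples fitted alone (9 samples) gave 0 passing for stearate against control, 0 for oleate against control, 0 past its fold limit, and 3 for stearate against oleate. The DMSO samples alone gave 3 for stearate against oleate and 2 past its fold limit. For stearate against control with CAY10566 0 passed without a filter and 0 without a trend, and for oleate against control with CAY10566 2 passed at a mean TPM of at least 5. These fits differ in samples or genes tested; the cause of each change was not tested.

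With 1 sample left out, the number of members passing was 2 to 3 for stearate against control, 4 to 7 for oleate against control and 5 to 6 for stearate against oleate. Oleate against control gave 4 without DMSO replicate 1, oleate+DMSO replicate 1 or oleate+DMSO replicate 3. It was 0 to 2 for stearate against control with DMSO, 2 arising without CAY10566 replicate 1. It was 0 to 1 for stearate and 1 to 2 for oleate against control with CAY10566, the higher oleate count arising without CAY10566 replicate 3, stearate+CAY10566 replicate 2 or oleate+CAY10566 replicate 2.

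The sign changed with scaling for CYP51A1 (-0.036) and HSD17B7 (-0.039) in stearate against control, NSDHL (0.0029) and HSD17B7 (0.0029) in CAY10566 against DMSO, DHCR7 (-0.015) for CAY10566 without fatty acid, and LSS (0.024) and CYP51A1 (0.048) in the oleate interaction. In stearate against control it changed for NSDHL (0.037) and HSD17B7 (-0.057) with DMSO samples only, and for DHCR7 (0.025) with CAY10566 samples only. With 1 sample left out the log2 values ran through 0 for HSD17B7 in stearate against control (-0.0092 to 0.060), SC5D in oleate against control (-0.039 to 0.016), and in CAY10566 against DMSO for NSDHL (-0.027 to 0.011), HSD17B7 (-0.043 to 0.025) and SC5D (-0.044 to 0.0029). For CAY10566 without fatty acid they did so for LSS (-0.017 to 0.22), where the negative value came without CAY10566 replicate 3, and for DHCR7 (-0.022 to 0.047). In the oleate interaction they did so for LSS (-0.11 to 0.12), CYP51A1 (-0.087 to 0.052) and HSD17B7 (-0.065 to 0.17).

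No pairing of the samples by replicate number was visible, which does not settle whether samples of the same number were handled together. Correlations of the deviations from the group means ran from -0.18 to 0.10 for the same number, 2 of 45 pairs being over 0.1, and from -0.12 to 0.17 for different numbers. With the replicate number as a block 7 members passed for oleate against control in place of 6 and 5 for stearate against oleate in place of 6, and every other count of members stayed as reported. The FDPS interaction was lost (adjusted p = 0.0614).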
